A study of Mus musculus with 38 samples.

Results

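The transcripts of 8 genes that mark the pyramidal cell fields CA1 to CA3 of the mouse hippocampus were followed in whole-hippocampus RNA: Wfs1, Fibcd1, Pou3f1, Bok, Rgs14, Amigo2, Pcp4 and Vstm2l. They were taken by name from the 48709 genes in the count tables, and all 8 passed the filter on low counts. The mice were C57BL/6 and were either wild-type (WT) or transgenic for APPPS1ΔE9. The transgenic mice carry Alzheimer's disease-linked forms of amyloid precursor protein and presenilin 1 and deposit amyloid plaques with age. The labels write this genotype as APPdelta9. Mice of both genotypes received placebo chow or chow with 2 g per kg of anle138b, a small molecule that modulates the aggregation of amyloid proteins, for 4 months. In the younger cohort, treatment began at 2 months, before plaque onset, and ended at 6 months, with 4 mice in each of the 4 groups. By thioflavin S staining, the paper found plaques in APPPS1ΔE9 mice of this cohort after treatment, fewer of them on anle138b. In the older cohort, treatment began at 6 months, after plaque onset, and ended at 10 months. At 10 months there were 5 WT mice on placebo, 5 WT mice on anle138b, 5 APPPS1ΔE9 mice on placebo and 7 APPPS1ΔE9 mice on anle138b. Each of the 38 libraries came from 1 mouse. The comparisons asked whether transcript levels differed between genotypes, between chows, and between the genotypes' responses to the chow. Since the whole hippocampus was extracted, fewer cells of a type and less RNA per cell cannot be told apart.

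The pyramidal layer of the hippocampus is divided into fields that form a relay. The dentate gyrus projects to CA3, CA3 projects to CA1, and CA1 sends much of the output, with CA2 as a small field between CA3 and CA1. Neurons of each field are told apart by combinations of transcripts, and many of these transcripts also differ between the dorsal and the ventral end of the structure. Wfs1, Fibcd1 and Pou3f1 mark CA1. Wfs1 encodes wolframin, a membrane protein of the endoplasmic reticulum, Fibcd1 encodes a membrane receptor that binds acetylated groups, and Pou3f1 encodes a POU-domain transcription factor. Bok, a member of the BCL2 family, is a CA3 marker. CA2 is marked by Rgs14, a regulator of G protein signalling that restrains synaptic plasticity there, by Amigo2, an adhesion protein with leucine-rich repeats, and by Pcp4, a small peptide that binds calmodulin and is also made outside CA2. Vstm2l is the remaining gene of the list.

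In GRCm38 the genes lie on 7 chromosomes. Wfs1 (ENSMUSG00000039474) lies at chr5:36966104-36989205 on the minus strand and Fibcd1 (ENSMUSG00000026841) at chr2:31813290-31846005 on the minus strand. Pou3f1 (ENSMUSG00000090125) lies at chr4:124656807-124660655 on the plus strand and is a single exon. Bok (ENSMUSG00000026278) lies at chr1:93685660-93695764, Rgs14 (ENSMUSG00000052087) at chr13:55369732-55384687 and Vstm2l (ENSMUSG00000037843) at chr2:157914653-157944719, all on the plus strand. Amigo2 (ENSMUSG00000048218) lies at chr15:97244125-97247287 on the minus strand and Pcp4 (ENSMUSG00000090223) at chr16:96467606-96525793 on the plus strand. All 8 are annotated as protein coding, and the counted reads fell in their exons, UTRs included. The exons of Pou3f1 overlap the opposite-strand gene Gm2164 over 330 bases, those of Amigo2 overlap the opposite-strand gene Pced1b over 58 bases, and those of Pcp4 overlap Igsf5 on the same strand over 243 bases. Igsf5 was not among the counted genes. Whether counting used strand is not given in the sources used here, so reads in the Gm2164 and Pced1b stretches may not all have been counted for Pou3f1 and Amigo2.

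RefSeq's promoter sequences for GRCm38.p6 covered 5 of the 8 genes: Wfs1, Fibcd1, Bok, Amigo2 and Pcp4. The 250 bases before RefSeq's start are shown for 4 of them, 5′ to 3′, because the levels of Wfs1, Bok and Pcp4 varied widely within the 10-month groups, with a larger SD on the log2 scale than those of Fibcd1. Capitals mark matches on either strand to 4 motifs. The GC box, bound by SP1-family factors, was searched as GGGCGG. The box bound by the NF-Y complex was searched as CCAAT. The TATA box near many start sites was searched as TATAAA. The cAMP response element, bound by CREB, was searched as TGACGTCA. The windows are chr5:36988983-36989232 on the minus strand for Wfs1, chr1:93685325-93685574 on the plus strand for Bok, chr16:96467356-96467605 on the plus strand for Pcp4 and chr2:31846006-31846255 on the minus strand for Fibcd1. For Wfs1 and Bok, RefSeq's start differs from that of the gene coordinates above. Most of the Wfs1 window lies inside the gene as given there, and the Bok window ends short of the given start.
Wfs1: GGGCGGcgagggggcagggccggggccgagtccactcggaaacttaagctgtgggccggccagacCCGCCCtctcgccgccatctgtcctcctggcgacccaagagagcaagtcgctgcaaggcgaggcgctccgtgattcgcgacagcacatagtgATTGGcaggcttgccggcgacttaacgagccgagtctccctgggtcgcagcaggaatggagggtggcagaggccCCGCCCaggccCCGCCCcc
Bok: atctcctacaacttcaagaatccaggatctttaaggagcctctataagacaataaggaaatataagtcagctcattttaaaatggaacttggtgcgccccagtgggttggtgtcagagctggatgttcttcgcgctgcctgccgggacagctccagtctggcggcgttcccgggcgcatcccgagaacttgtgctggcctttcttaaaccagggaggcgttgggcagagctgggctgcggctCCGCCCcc
Pcp4: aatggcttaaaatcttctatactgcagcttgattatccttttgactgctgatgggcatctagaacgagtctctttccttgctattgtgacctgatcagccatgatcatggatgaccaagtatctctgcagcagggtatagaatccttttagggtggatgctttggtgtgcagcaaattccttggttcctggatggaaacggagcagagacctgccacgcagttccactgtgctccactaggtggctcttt
Fibcd1: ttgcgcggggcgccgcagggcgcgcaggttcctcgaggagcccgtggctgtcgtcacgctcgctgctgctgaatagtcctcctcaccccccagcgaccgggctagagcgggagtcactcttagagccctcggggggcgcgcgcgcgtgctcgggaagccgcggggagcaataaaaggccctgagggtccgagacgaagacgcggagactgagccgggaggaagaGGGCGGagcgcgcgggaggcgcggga
The Wfs1 window had a GC content of 69.6% with 4 GC boxes and 1 CCAAT box, and none of its matches overlapped another. Bok (55.2% GC) and Fibcd1 (71.6% GC) each had 1 GC box, whereas Pcp4 (46.8% GC) had none of the 4 motifs. Amigo2, whose window is not shown, had a GC content of 84%, 4 GC boxes and 1 CCAAT box. GC boxes were thus in 4 of the 5 windows and in 32.7% of 32851 promoter windows of the same length, and CCAAT boxes in 2 of the 5 and in 33.8% of all. No TATA box or cAMP response element match was in the 5 windows, against 12.4% and 1.5% of all promoters. These matches are letters in the window and do not show that a factor binds there.

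The libraries held 15847985 to 31895808 counted reads, and each of the 8 genes had at least 374 and at most 6912 reads in every mouse. App was at 1522 to 1799 CPM in the mice labelled WT and at 3274 to 4286 CPM in those labelled APPPS1ΔE9. CPM are read counts scaled to library size, without TMM factors for App, Prnp, Xist and the Y-linked genes and with TMM factors for all other levels. The 4 WT mice of the 6-month placebo group carry a conflicting genotype entry in 1 label field, and their App levels lay between 1623 and 1799 CPM, below all APPPS1ΔE9 mice. Prnp, whose promoter is widely used to drive such transgenes, was also higher in the APPPS1ΔE9 mice (2244 to 2907 CPM, against 935 to 1210 CPM in WT). Although the study describes male mice, Xist exceeded the summed Y-linked genes in 12 of 38 mice, 11 of the 18 WT and 1 of the 20 APPPS1ΔE9 mice. At 6 months these were 3 of 4 WT mice on placebo, 2 of 4 WT mice on anle138b and 0 of 4 in each APPPS1ΔE9 group. At 10 months they were 3 of 5 WT mice on each chow and, in APPPS1ΔE9 mice, 0 of 5 on placebo and 1 of 7 on anle138b. Genotype comparisons had no within-lane value because sequencing lane was nearly inseparable from group. The transcripts listed for pyramidal cells of all fields (Neurod6, Spink8, Slc17a7, Camk2a and Nrgn) summed to 5383 to 8507 CPM in every mouse. This sum does not single out the fields CA1 to CA3.

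Levels between genes were compared per kilobase of exon. The median over the 38 mice was highest for Fibcd1 at 35.3 RPKM (CPM per kilobase of exon) and Pcp4 at 35 RPKM, followed by Wfs1 at 33.3 and Rgs14 at 30.3 RPKM. Bok had a median of 25.6 RPKM and Vstm2l of 22.3 RPKM, whereas Amigo2 (10.6 RPKM) and Pou3f1 (8.73 RPKM) were the least abundant. The genes of CA1 and those of CA2 were therefore found at both ends of this order. When the 8 groups were ordered by mean level, all 7 neighbouring pairs differed by less than the larger SD of the pair for every gene except Vstm2l, for which 6 of 7 did. The group means of Wfs1, Fibcd1, Pou3f1, Bok, Rgs14, Amigo2 and Pcp4 thus formed a continuum in which no group stood apart from the next.

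**Figure D1:**
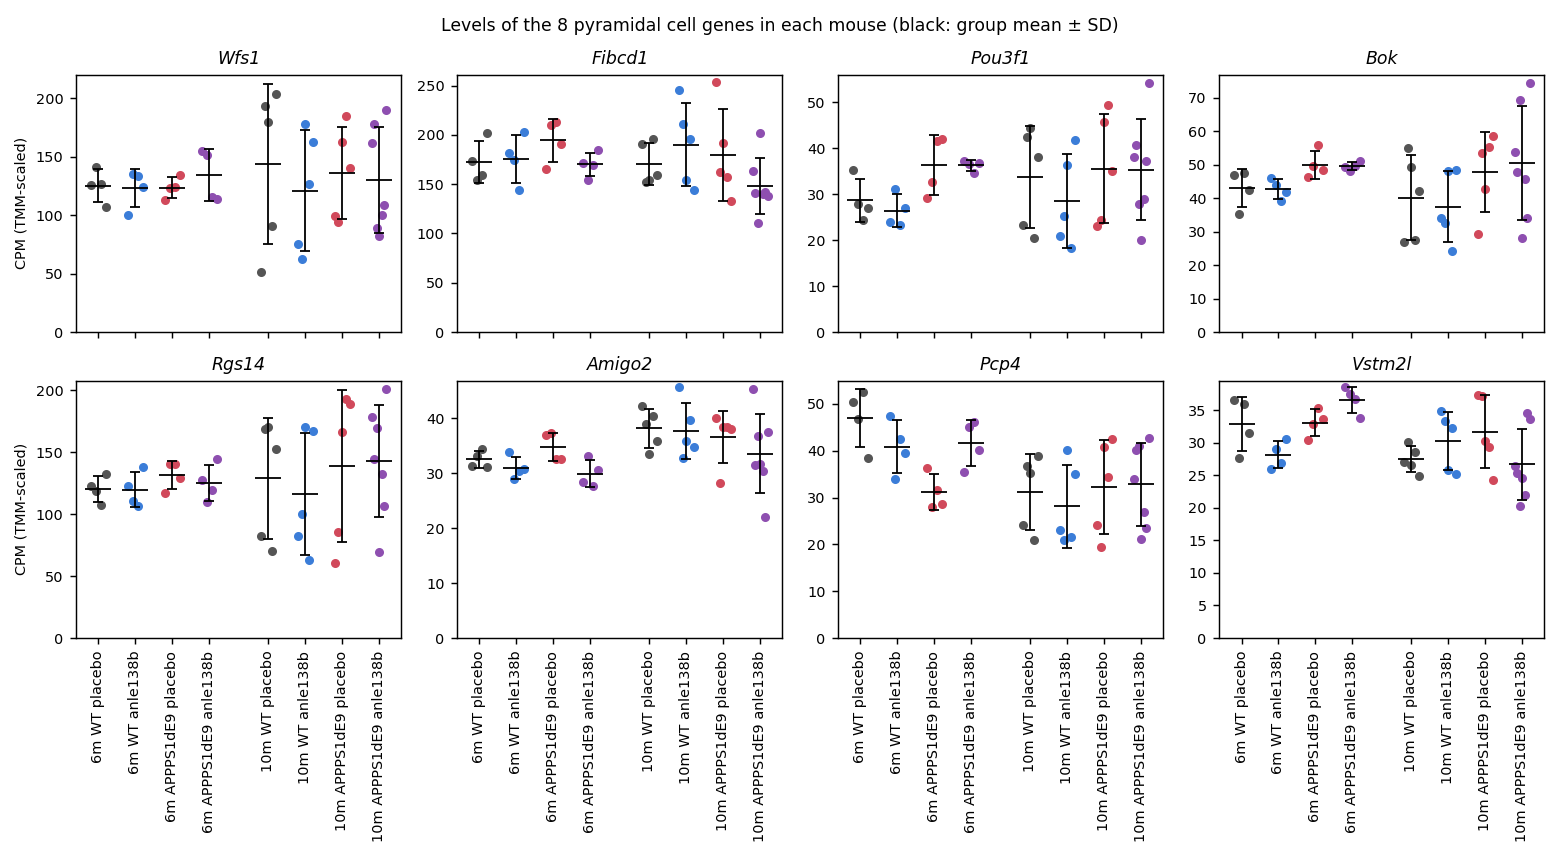
Levels of the 8 genes in the 38 mice, in TMM-scaled CPM on linear axes that start at 0, with 1 panel per gene and 1 column per group (6 months on the left, 10 months on the right, and APPPS1ΔE9 written as APPPS1dE9). Points are mice, and black lines are group means with SD. In the 6-month groups Rgs14 stays between 106 and 144 CPM, whereas in the 10-month groups it runs from 60.9 to 201 CPM.

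In 6-month-old mice on placebo, no gene of the set passed the threshold of an adjusted p of 0.1 between genotypes (edgeR's quasi-likelihood test with Benjamini-Hochberg adjustment), and 0.0715% of all 16774 genes did. The nearest was the CA2 gene Pcp4. It lay at 38.4, 46.8, 50.4 and 52.6 CPM in the 4 WT mice and at 28, 28.6, 31.7 and 36.4 CPM in the 4 APPPS1ΔE9 mice. Every transgenic mouse was below every WT mouse, and Pcp4 was the only gene of the 8 whose groups did not overlap, against 5.86% of all 18232 genes. Its log2 difference was −0.60 (SE 0.11), with an unadjusted p of 0.000121 and an adjusted p of 0.136 by edgeR's quasi-likelihood test. Xist was high in 3 of the 4 WT mice and 0 of the 4 APPPS1ΔE9 mice, so genotype and Xist level can hardly be told apart here. Marker lists of other tissue were also lower in the APPPS1ΔE9 mice, with a median log2 difference of −0.69 for thalamus and −0.50 for striatum. It was −0.08 for the other CA2 markers, and no gene of these 3 lists passed. The part of such tissue in the Pcp4 difference was not tested. The choroid plexus markers differed between the same groups, at 186, 3943, 6199 and 7650 CPM in WT against 64.1, 186, 715 and 6635 CPM in APPPS1ΔE9 mice. With their summed level in the fit, the Pcp4 difference was −0.45 and its adjusted p 0.0462, and the adjusted p ranged from 0.000155 to 0.675 over the settings tried. Leaving out WT replicate 4, which had 186 CPM of choroid plexus transcripts, gave an adjusted p of 0.0169, and leaving out APPPS1ΔE9 replicate 1, which had 6635 CPM, gave 0.0164. By an unadjusted p under 0.05 there were 3 of the 8 genes (Pcp4, Pou3f1 and Bok), and 11.1% of all genes, and DESeq2 called 1 (Pcp4).

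Pcp4 was lower in the placebo group of APPPS1ΔE9 mice than in the mice of the same genotype on anle138b, which lay at 35.5, 40.2, 45 and 46.2 CPM. The highest placebo mouse (36.4 CPM) overlapped the lowest treated mouse. The log2 difference was 0.42 (SE 0.10, unadjusted p = 0.00162), and with an adjusted p of 0.28 (edgeR) it did not pass. Without APPPS1ΔE9 placebo replicate 1, Pcp4 (0.51, adjusted p = 0.0385 by edgeR) and Fibcd1 (−0.26, adjusted p = 0.0922) both passed. That mouse had 6635 CPM of choroid plexus transcripts, against 64.1 to 715 CPM in the other 3 placebo mice, and the treated mice had 168, 5998, 6774 and 7444 CPM. With their summed level in the fit, the difference between chows was 0.33 for Pcp4 (adjusted p = 0.601 by edgeR) and −0.11 for Fibcd1 (adjusted p = 0.726). In WT mice on anle138b Pcp4 lay at 34, 39.4, 42.5 and 47.4 CPM, a difference of −0.20 (SE 0.11) from WT mice on placebo, and on anle138b the genotypes differed by 0.03 (SE 0.11). The genotype-by-chow interaction for Pcp4 was 0.63 (SE 0.17, unadjusted p = 0.00166, adjusted p = 0.533 by edgeR), which did not pass. Over the 8 genes, the median difference at 6 months was 0.12 and 0.10 for genotype on placebo and on anle138b and −0.04 and −0.01 for chow in WT and APPPS1ΔE9 mice, beside medians over all genes of 0.00.

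Among 6-month-old mice on anle138b, 3 genes had groups that did not overlap between genotypes, Pou3f1, Bok and Vstm2l, against 3.29% of all genes. None passed the threshold, which 0.0470% of the 17033 genes tested did. The CA1 transcription factor Pou3f1 lay at 23.4, 24.1, 27.1 and 31.2 CPM in WT mice and at 34.5, 36.5, 36.8 and 37.3 CPM in APPPS1ΔE9 mice, a log2 difference of 0.46 (SE 0.09, unadjusted p = 0.000227, adjusted p = 0.322 by edgeR). Vstm2l lay at 26, 26.9, 29.1 and 30.6 CPM in WT mice and at 33.8, 36.7, 37.5 and 38.5 CPM in APPPS1ΔE9 mice, a difference of 0.38 (SE 0.07, unadjusted p = 0.000172, adjusted p = 0.284 by edgeR). All 4 transgenic mice were above all 4 WT mice for both genes. By an unadjusted p under 0.05 there were 3 of the 8 genes and 5.64% of all genes. DESeq2 called both, and by edgeR Pou3f1 passed without WT replicate 2 (adjusted p = 0.00442) and Vstm2l without APPPS1ΔE9 replicate 4 (adjusted p = 0.0787).
The CA3 gene Bok lay at 39.2, 41.8, 44.0 and 46.0 CPM in WT mice on anle138b and at 48.0, 49.3, 49.7 and 51.0 CPM in transgenic mice. Its difference was smaller, 0.22 (SE 0.06, unadjusted p = 0.00263, adjusted p = 0.707 by edgeR).

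On placebo the same 3 genes gave log2 differences between genotypes of 0.34 for Pou3f1 (SE 0.15), 0.21 for Bok (SE 0.09) and 0.01 for Vstm2l. Pou3f1 lay at 24.5, 27, 27.8 and 35.3 CPM in WT mice on placebo and at 29.2, 32.6, 41.7 and 42.1 CPM in APPPS1ΔE9 mice on placebo, and the groups overlapped. Bok ranged from 35.3 to 47.5 CPM and from 46.2 to 55.7 CPM in the same groups. Vstm2l gave the largest interaction after Pcp4, 0.38 (SE 0.12, unadjusted p = 0.00439, adjusted p = 0.618 by edgeR). None of the 8 interactions at 6 months passed the threshold, nor did any of the 17404 genes tested (0%), with 2 of the 8 genes and 7.99% of all genes at an unadjusted p under 0.05 and none of the 8 called by DESeq2.

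The chow comparisons at 6 months called none of the 8 genes by edgeR, whereas DESeq2 called Pcp4 in APPPS1ΔE9 mice and none in WT mice. In WT mice 0% of 16766 genes passed and 1.62% of genes had groups that did not overlap, none of them among the 8, and by an unadjusted p under 0.05 there was 1 of the 8, Vstm2l (difference −0.22, SE 0.09), and 1.85% of all genes. In APPPS1ΔE9 mice 0.0529% of 17009 genes passed and 6.02% had groups that did not overlap, again none of the 8. In all, 4 of the 8 genes and 13.1% of all genes had an unadjusted p under 0.05 there, where Pcp4 and Vstm2l (difference 0.15, SE 0.06) were higher on anle138b and Fibcd1 (difference −0.20, SE 0.08, adjusted p = 0.354 by edgeR) and Amigo2 (difference −0.22, SE 0.07, adjusted p = 0.317) were lower. Across the genotype and chow comparisons at both ages, 12 of 64 differences had an unadjusted p under 0.05, and 11 of these 12 were at 6 months. Of all genes, 7.93% of differences had such a p in the 6-month comparisons and 3.16% in the 10-month comparisons. The Wfs1 and Rgs14 values overlapped between all 6-month groups compared, with Wfs1 between 99.999 and 155 CPM.

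**Figure D2:**
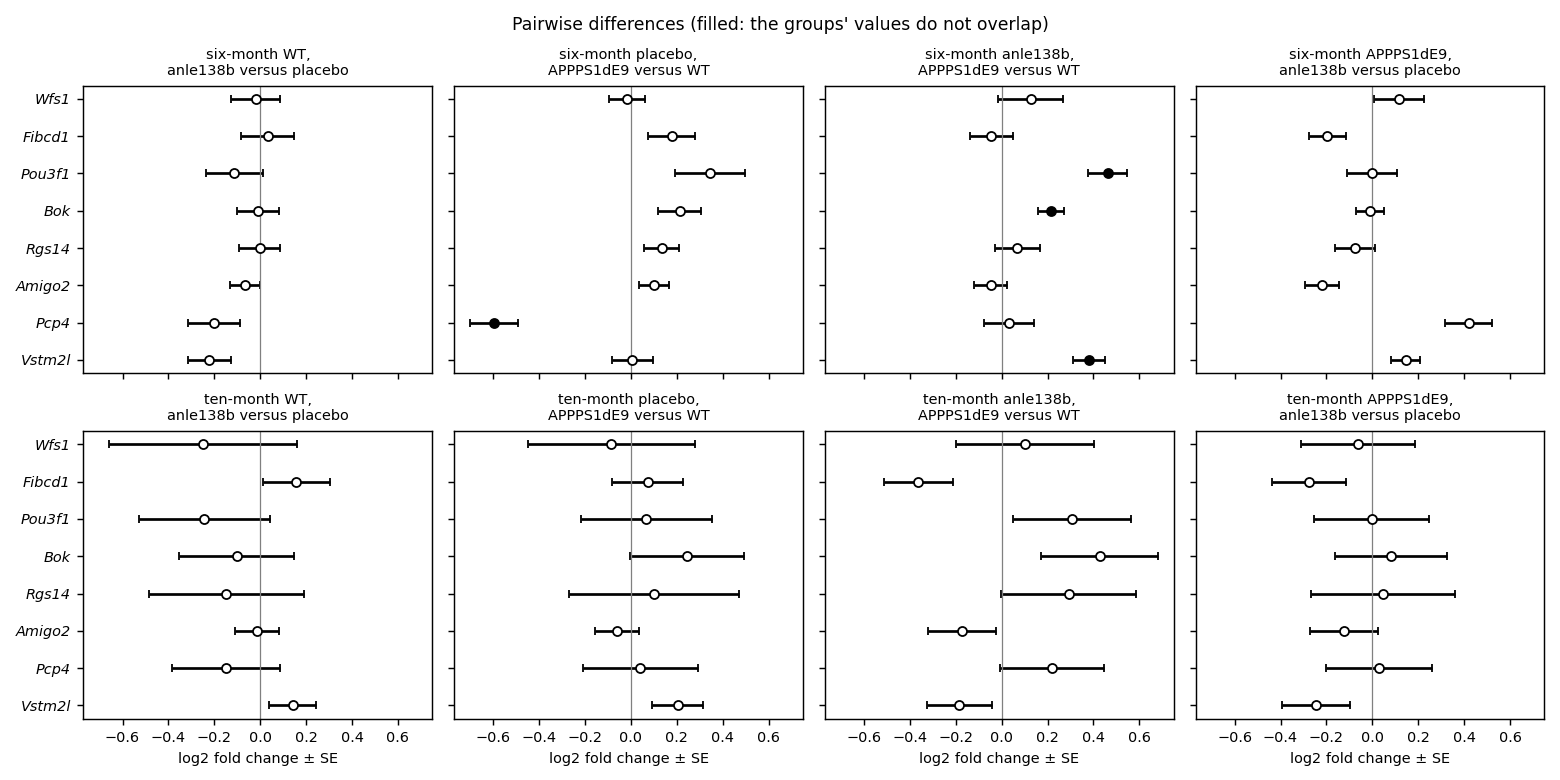
Log2 differences of the 8 genes (points) with their SE (bars) in the 8 genotype and chow comparisons, with 6 months in the upper row of panels and 10 months in the lower. The vertical line marks equal levels, and filled points mark genes whose groups do not overlap. The filled points are Pcp4 at −0.60 between genotypes on placebo and Pou3f1 (0.46), Bok (0.22) and Vstm2l (0.38) between genotypes on anle138b, all at 6 months, and no point is filled at 10 months.

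At 10 months the same genes differed far more between mice of 1 group than between groups. Rgs14, the CA2 regulator of G protein signalling, lay at 70.2, 82.0, 152, 169 and 170 CPM in WT mice on placebo and at 63.2, 82.0, 100.04, 167 and 170 CPM in WT mice on anle138b. In APPPS1ΔE9 mice it lay at 60.9, 85.3, 166, 188 and 193 CPM on placebo and between 69.1 and 201 CPM on anle138b, with a median of 144 CPM. Every group therefore held mice with low and mice with high Rgs14, and the widest gap among the 22 mice, from 106 to 132 CPM, had mice of each group on both sides. At 6 months all 16 mice lay between 106 and 144 CPM.

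The CA1 gene Wfs1 showed a similar range, from 51.0 to 204 CPM in WT mice on placebo, 62.4 to 178 CPM in WT mice on anle138b, 94.0 to 184 CPM in APPPS1ΔE9 mice on placebo and 82.3 to 190 CPM in those on anle138b. Bok ran from 24.1 CPM in a WT mouse on anle138b to 74.4 CPM in an APPPS1ΔE9 mouse on anle138b. Pou3f1 lay between 18.3 and 54.3 CPM and Pcp4 between 19.5 and 42.7 CPM. Fibcd1 ran from 111 to 254 CPM, Amigo2 from 22 to 45.6 CPM and Vstm2l from 20.3 to 37.4 CPM. The highest of the 22 mice was 3.99 times the lowest for Wfs1, 2.29 times for Fibcd1, 2.19 times for Pcp4 and 1.84 times for Vstm2l.

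The within-group SD of log2 CPM put this in numbers. For Rgs14 it was 0.15 at 6 months and 0.63 at 10 months, a ratio of 4.20, and 97.8% of all genes had a smaller ratio. Bok went from 0.13 to 0.46 (ratio 3.68) and Wfs1 from 0.18 to 0.63 (ratio 3.40), above 96.8% and 95.9% of genes. The ratio was 2.49 for Pou3f1, 2.41 for Amigo2 and 2.31 for Pcp4, and lowest for Vstm2l (1.92) and Fibcd1 (1.71). The median gene had an SD of 0.15 at 6 months and 0.20 at 10 months, a ratio of 1.20, so all 8 genes lay above the median. No test was made of these ratios, and the cohort cannot be told apart from the age, the treatment window or anything else that separated the cohorts.

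**Figure D3:**
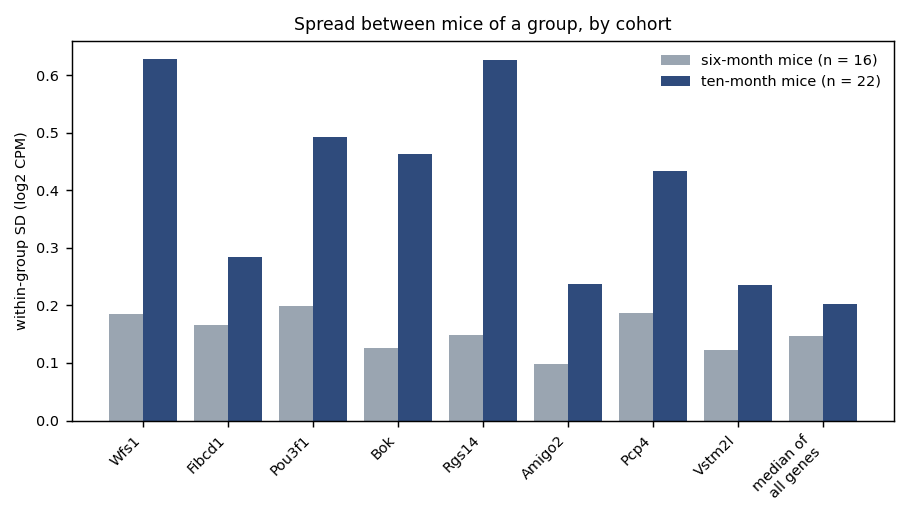
Within-group SD of log2 CPM for each of the 8 genes and for the median of all genes, in the 16 mice at 6 months (grey bars) and the 22 mice at 10 months (blue bars). The blue bars of Rgs14 and Wfs1 reach 0.63, against 0.20 for the median gene.

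None of the 8 genes passed the threshold in a genotype or chow comparison at 10 months, and none had groups that did not overlap. On placebo the genotype differences ran from −0.09 (Wfs1, SE 0.36) to 0.24 (Bok, SE 0.25), with 0.324% of 16971 genes past the threshold and 1.39% not overlapping. On anle138b they ran from −0.36 (Fibcd1, SE 0.15, adjusted p = 0.818 by edgeR) to 0.43 (Bok, SE 0.25), with 0.723% of 17151 genes past the threshold and 0.850% not overlapping. Fibcd1, the CA1 receptor, lay between 144 and 246 CPM in WT mice and between 111 and 202 CPM in APPPS1ΔE9 mice in that comparison, and was the only 1 of the 8 with an unadjusted p under 0.05, as had 5.78% of all genes. Between chows, the differences in WT mice ran from −0.25 (Wfs1, SE 0.41) to 0.16 (Fibcd1, SE 0.15), with 0% of 16986 genes past the threshold and 0.302% not overlapping. In APPPS1ΔE9 mice they ran from −0.28 (Fibcd1, SE 0.16) to 0.08 (Bok, SE 0.24), with 0% of 17110 genes past the threshold and 0.0494% not overlapping. In the other 3 comparisons 0 of the 8 genes and 1.25% to 4.10% of all genes had an unadjusted p under 0.05, and DESeq2 called none of the 8 in any of the 4. The interaction at 10 months called 0% of 17668 genes, with none of the 8 at an unadjusted p under 0.05 or called by DESeq2, and its largest value among the 8 was −0.43 (Fibcd1, SE 0.23). The standard errors of Wfs1 in these 4 comparisons were 0.25 to 0.41, against 0.11 for Pcp4 between genotypes on placebo at 6 months. The median over the 8 genes was 0.07 and 0.16 for genotype on placebo and on anle138b, and −0.13 and −0.03 for chow in WT and in APPPS1ΔE9 mice, with medians over all genes at 0.00.

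Rgs14 was set beside transcripts of the ventral hippocampus and of dentate granule cells. Summed over Dcn, Trhr, Nr2f2 and Grp, which mark the ventral end, the level was 101 to 188 CPM at 6 months and 14.1 to 297 CPM at 10 months, when 12 mice lay at or below 42.3 CPM and 10 at or above 88.9 CPM. Summed over the dentate granule markers Prox1, C1ql2, Dsp, Lct and Tdo2, it was 230 to 335 CPM at 6 months and 97.9 to 601 CPM at 10 months. In each of the 4 groups at 10 months, the mouse with the lowest Rgs14 had a high ventral and a low dentate level, and the mouse with the highest Rgs14 the opposite. In WT mice on placebo, the mouse with 70.2 CPM of Rgs14 had 259 CPM of ventral and 132 CPM of dentate transcripts, and the mouse with 170 CPM of Rgs14 had 39.1 and 504 CPM. In WT mice on anle138b, the mouse with 63.2 CPM of Rgs14 had 280 CPM of ventral and 155 CPM of dentate transcripts, and the mouse with 170 CPM had 38.9 and 503 CPM. The corresponding mice in APPPS1ΔE9 on placebo had 297 and 97.9 CPM (Rgs14 at 60.9 CPM) against 14.1 and 507 CPM (Rgs14 at 193 CPM), and on anle138b 261 and 130 CPM (Rgs14 at 69.1 CPM) against 42.3 and 562 CPM (Rgs14 at 201 CPM). Replicate 3 of the APPPS1ΔE9 mice on placebo departed from this, with Rgs14 at 166 CPM, ventral transcripts at 163 CPM and dentate transcripts at 358 CPM. The relation was not particular to these 2 lists. Oligodendrocyte markers summed to 2503, 1927, 2248 and 2361 CPM in the mice with the lowest Rgs14, in the order of groups above. In the mice with the highest Rgs14 they summed to 4924, 5674, 4453 and 4289 CPM. The part of these markers in the spread of Rgs14 was not tested. Nor were these markers level between the 10-month groups. The median log2 difference of the ventral markers was −1.12 between genotypes on anle138b and −0.91 between chows in APPPS1ΔE9 mice. It was 0.11 between genotypes on placebo and 0.29 between chows in WT mice. The dentate markers gave 0.43, 0.27, −0.24 and −0.46 in the same order. No gene of either list passed, and their part in the differences of Fibcd1 and Bok was not tested. The same markers moved with 1 count of calls. Without the mice high in Xist, 2 WT mice a chow remained at 10 months, and 7 of the 8 genes passed between chows (edgeR), as did 32.3% of 17203 genes. Those 2 placebo mice had 38 and 27.9 CPM of ventral transcripts and the 2 anle138b mice 222 and 136 CPM.

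**Figure D4:**
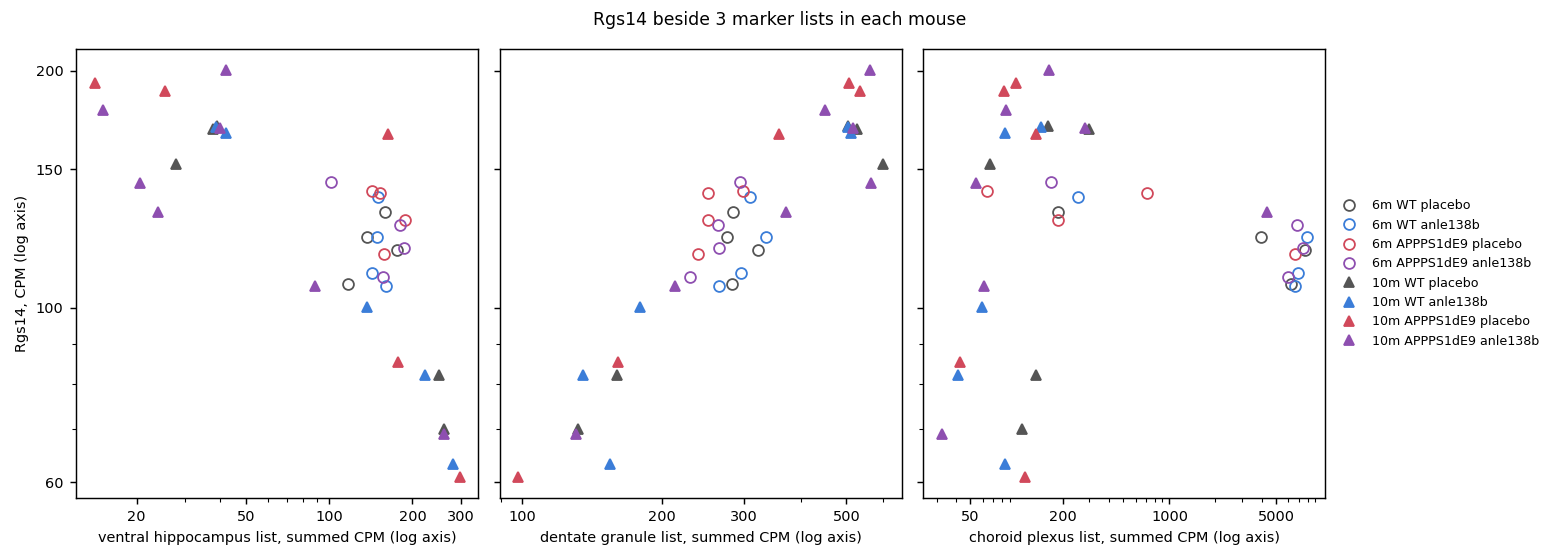
Rgs14 in CPM (vertical) against the summed CPM of the ventral hippocampus, dentate granule and choroid plexus markers (horizontal, left to right), with log axes. Each point is a mouse, circles are 6 months, triangles are 10 months, and colours give genotype and chow. At 10 months the mice lie on either side of a gap from 42.3 to 88.9 CPM on the ventral axis, and at 6 months on either side of a gap from 715 to 3943 CPM on the choroid plexus axis.

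Because the 10-month mice fell into 2 clusters by the ventral markers and the 6-month mice into 2 by the choroid plexus markers (6 mice at or below 715 CPM and 10 at or above 3943 CPM), correlations between the genes are given within clusters only. The coefficients used deviations of log2 CPM from the group mean, with a permutation test within groups and adjustment over the 28 pairs of genes. None of the 28 pairs passed an adjusted p of 0.05 in the 3 clusters tested. The 6 mice at or below 715 CPM were not tested, since a single group had 2 or more of them. In the 10 mice above the ventral gap at 10 months, Pou3f1 and Rgs14 gave Pearson's r = 0.94 (permutation p = 0.0074, adjusted 0.207) and Spearman's rho = 0.93 (permutation p = 0.0074, adjusted 0.207), and r = 0.89 without the 2 mice farthest from the median. With 144 arrangements the smallest p in that cluster was about 0.00694, above the 0.00179 that a pair needs to pass the correction alone. The same held for the 0.00463 of the 9 mice used at 6 months. In both clusters only several pairs at the smallest p together could have passed. In the 12 mice below the gap, 2880 arrangements allowed p-values down to 0.000347. The highest coefficient there was that of Pou3f1 with Vstm2l, r = 0.92 (permutation p = 0.00616, adjusted 0.172), rho = 0.77 (permutation p = 0.0357, adjusted 0.348) and r = 0.80 without the farthest 2 mice.

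The order of the coefficients was not shared between clusters. Pou3f1 with Rgs14 gave r = 0.94 above the gap, 0.58 below it and 0.34 in the 6-month mice above the choroid plexus gap, and Pou3f1 with Vstm2l gave 0.07, 0.92 and 0.39. Fibcd1 with Rgs14 gave −0.43, 0.01 and 0.72, and Bok with Rgs14 gave 0.57, 0.84 and 0.12. None of the 120 relations between the 8 genes and the summed marker lists passed the correction in these clusters either. Rgs14 with the dentate markers gave r = 0.94 (permutation p = 0.0354, adjusted 0.386) above the ventral gap, with rho = 0.83 (permutation p = 0.0552, adjusted 0.497) and r = 0.79 without the farthest 2 mice. Below the gap it gave r = 0.40 and, without the farthest 2 mice, r = −0.88.

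**Figure D5:**
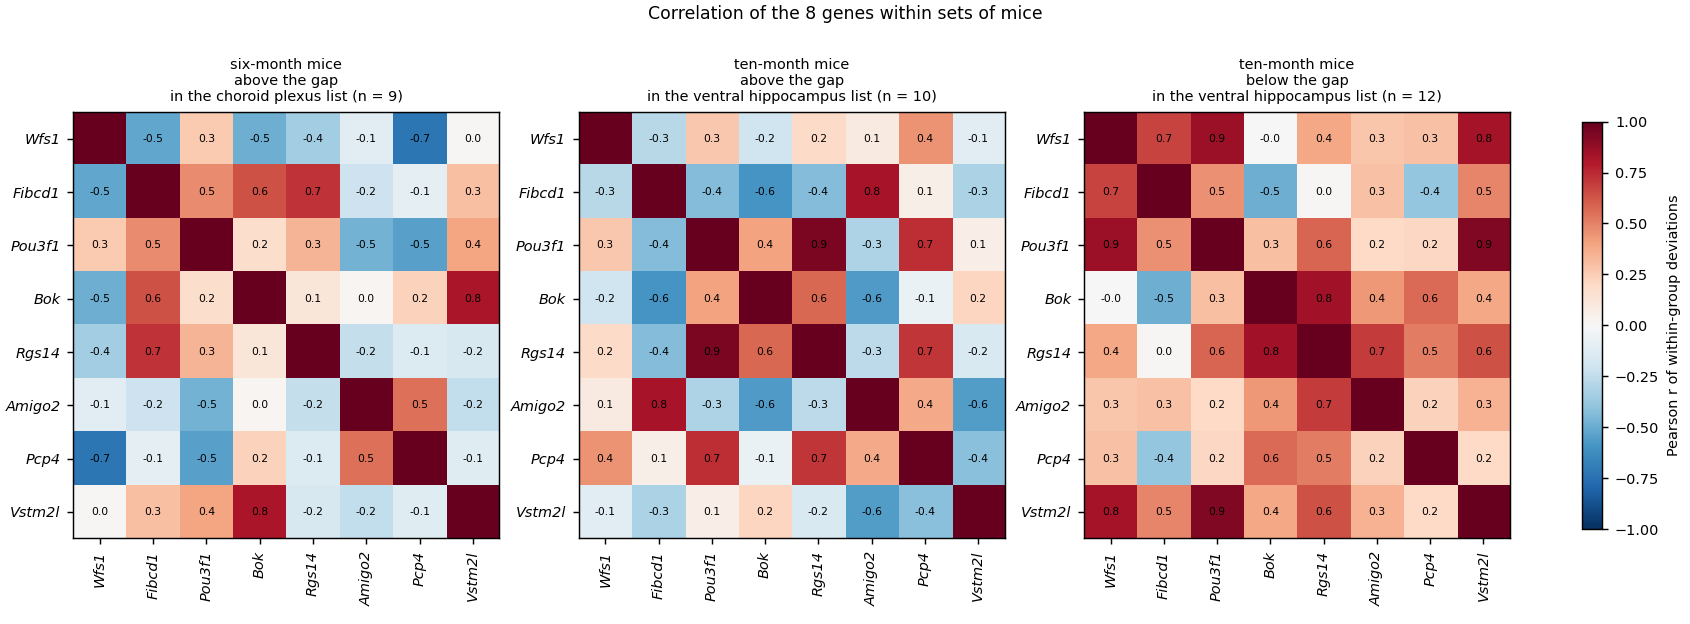
Pearson's r of the within-group deviations of log2 CPM for all pairs of the 8 genes, with colour and printed value giving r from −1 to 1. The panels are the 9 mice used at 6 months above the choroid plexus gap, the 10 mice above the ventral gap at 10 months and the 12 mice below it. Pou3f1 with Rgs14 is at 0.94 above the ventral gap and at 0.58 below it.

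Over all 38 mice with cohort, genotype and chow as additive terms, no gene of the set passed for genotype, for which 1.68% of 17632 genes did, or for chow, for which 0% did. Bok was 0.29 higher in APPPS1ΔE9 mice on the log2 scale (SE 0.11, unadjusted p = 0.0125, adjusted p = 0.342 by edgeR) and Pou3f1 0.28 higher (SE 0.12, unadjusted p = 0.0266, adjusted p = 0.451), and these were the only 2 with an unadjusted p under 0.05, as had 1586 of the 17632 genes. For chow there were 0 of the 8 and 3.63% of all genes, and DESeq2 called none of the 8 for either term. The median genotype difference was 0.05 over the 8 genes and −0.01 over all genes. The cohort term called 3 of the 8 genes, where 63% of all genes passed, 31% higher and 32% lower at 10 months. Amigo2 rose by 0.19 (SE 0.06, adjusted p = 0.0065 by edgeR), Pcp4 fell by 0.35 (SE 0.12, adjusted p = 0.0102) and Vstm2l fell by 0.17 (SE 0.07, adjusted p = 0.0318). The choroid plexus markers fell by a median of 3.68 on the log2 scale between the same cohorts, with 5 of 5 called. With the summed ventral markers as a covariate, Amigo2, Pcp4, Bok and Rgs14 passed, and with the choroid plexus markers, Fibcd1 and Vstm2l did. Without the 12 mice high in Xist, Pcp4 and Vstm2l passed. The Pcp4 difference was −0.61 with the ventral markers and −0.09 (adjusted p = 0.692 by edgeR) with the choroid plexus markers as a covariate, and that of Vstm2l was −0.08 (adjusted p = 0.309) and −0.26.

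The other pyramidal marker lists were followed in the same fits. No gene of the lists for other CA1 (such as Man1a, Mpped1 and Ccn3), other CA2 (Cacng5, Map3k15, Ntf3, Necab2 and Fgf2) or other CA3 markers (Grik4, Iyd, Nectin3 and Cpne4) passed a genotype or chow comparison. Their summed levels were 423 to 569, 121 to 162 and 223 to 298 CPM at 6 months and 269 to 627, 96.6 to 168 and 222 to 339 CPM at 10 months. In within-group deviations over all mice, Wfs1 and Pou3f1 ran against the other CA1 markers (r = −0.65 and −0.63) and Fibcd1 with them (0.72). Rgs14 and Pcp4 ran against the other CA2 markers (−0.60 and −0.40), Amigo2 gave 0.28, and Bok with the other CA3 markers 0.71. At 6 months alone Wfs1, Pou3f1 and Pcp4 gave 0.23, 0.35 and 0.38, and Rgs14 −0.52. Pcp4 with the thalamus markers gave 0.88 over all mice and 0.65 at 6 months alone. All points share the clusters above, so these are descriptions. In the cohort term Fgf2 rose by 0.33 and Grik4, a kainate receptor subunit of CA3, by 0.24, and Man1a, a Golgi mannosidase, fell by 0.21. Of the lists for other cells, genotype calls came from microglia and astrocytes. The microglial gene Cx3cr1, a chemokine receptor, rose by 0.51 on the log2 scale in 10-month-old APPPS1ΔE9 mice on anle138b, and over all mice the astrocyte gene Gfap rose by 0.72. The summed levels of the remaining lists at 6 and 10 months were 759 to 983 and 576 to 929 CPM for inhibitory neurons, 3922 to 5180 and 1927 to 6011 CPM for oligodendrocytes, 122 to 170 and 90.6 to 216 CPM for neocortex and subiculum, 30.6 to 106 and 18.6 to 103 CPM for thalamus, 9.39 to 29.6 and 6.69 to 24.9 CPM for striatum, 1241 to 1859 and 1174 to 2287 CPM for astrocytes, 277 to 415 and 252 to 491 CPM for microglia and 112 to 157 and 132 to 172 CPM for endothelium.

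Each of the 8 genes was also set beside the genes whose within-group deviations were most like its own over the 38 mice, among 18232 genes. These coefficients are descriptions in which all points share the libraries and the clusters above. Rgs14 was most like Limd2, Rbfox1 and Epha7, with r = 0.97 for each, and Limd2 and Rbfox1 kept r = 0.90 and 0.92 within the 6-month mice. Pcp4 was most like Ddo, Cacng5 and Fam84b (r = 0.92, 0.92 and 0.91). Pou3f1 was most like Psd (0.92), Pou3f3 (0.91) and Bcl11a (0.90), of which Pou3f3 encodes a related POU-domain factor, and Bok most like Nck2 (0.92), Kdm4b (0.91) and Lrrc10b (0.91). For Wfs1 the highest were Trpm4 (0.87), Usf2 (0.85) and Mus81 (0.85), and for Usf2 the coefficient was 0.00 at 6 months and 0.90 at 10 months. Fibcd1 was most like Fam189a1 (0.88), Smyd5 (0.83) and Crym (0.82), and Vstm2l most like Rell2 (0.88), Atp13a2 (0.85) and Rundc3a (0.85). Amigo2 had no close counterpart, with a highest coefficient of 0.61 to Akr1b3.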

How the data were processed

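RNA from the whole hippocampus of 38 mice was sequenced by the authors as poly(A)-selected libraries. The deposited files hold raw read counts per gene, made by the authors with an aligner to mm10 and HTSeq (intersection-nonempty). Counts were analysed as deposited, with groups from the labels. The 8 genes and the marker lists were chosen with earlier results of these data known.

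edgeR 4.0.16 in R 4.3.3 was used with filterByExpr (minimum count 10, minimum total 15), TMM scaling, robust quasi-likelihood fits of the groups compared, and Benjamini-Hochberg adjustment over all genes tested. The threshold was an adjusted p of 0.1. Interactions used the 4 groups of a cohort, and the additive fit used all 38 mice. Levels are CPM with TMM scaling, except those of App, Prnp, Xist and the Y-linked genes, which had no TMM factor. For correlations, log2 CPM with a prior count of 2 was used with 100000 resamples. For each of the 8 genes, the 3 genes most like it over all mice are named, besides list members past the threshold (up to 3 a list and comparison) and the label checks App, Prnp and Xist. RPKM used exonic lengths from GENCODE M21, in which 48349 of 48709 gene IDs were found. The scripts were tested on simulated data. Alternatives were DESeq2 1.42.0, RLE scaling, no filter, leaving out each replicate, a replicate block and covariates for Y-linked genes and marker lists.

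Replicate numbers were not used to pair the mice in the main fits. Of 54 same-numbered pairs, 29 had deviations correlated above 0.1 (range −0.548 to 0.624). Pairs with different numbers were not compared, so whether the numbers pair the mice is not settled. Comparing counts within groups, 75 pairs of libraries each differed by more than sampling noise, by 3.17 to 65.3 times its expected chi-square. The p-values measure the spread between mice, which also differed in Xist and in the marker lists. Some members of the marker lists are not reported here.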

Additional observations from a re-analysis of the deposited data

Results flagged for a closer look

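Amigo2, the CA2 adhesion protein, stood out in 1 mouse. In 10-month-old APPPS1ΔE9 mice on placebo, replicate 2 had 28.3 CPM, whereas the other 4 mice lay between 38 and 40.1 CPM. The gap to the nearest mouse was 0.828 of the range of the group, above Dixon's critical value of 0.71 for 5 mice. It was the only such mouse in 64 groups of values tested. Chance gives about 1 in 20, so a single such mouse is no more than chance alone would give. No difference between the genotypes' responses to the chow passed the test for any of the 8 genes.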

How the results depend on the processing

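Recomputed counts were those of the 8 genes past the threshold and, in some settings, of gene pairs with a passing correlation. With other settings, 119 of 135 counts were the same or similar in size, 12 were higher and 4 lower. When 1 mouse was left out, 223 of 228 were the same or similar and 5 were higher. A count that stayed similar could hold different genes. On placebo at 6 months, 1 gene, Pcp4, passed between genotypes with no filter (adjusted p = 0.0126), with the replicate block (0.0336), with DESeq2 (0.000155), with the ventral list (0.0994) or the choroid plexus list (0.0462) as a covariate and with all 4 groups in the fit (0.0796), and 0 to 1 passed when a mouse was left out. Pcp4 did not pass there with RLE scaling or with the Y-linked covariate. On anle138b at 6 months, 1 gene (Pou3f1) passed with no filter and 2 with DESeq2 (Pou3f1 and Vstm2l), and 0 to 1 without a mouse. Between chows in 6-month-old APPPS1ΔE9 mice, 1 gene (Pcp4) passed with no filter and 1 with DESeq2, and 0 to 2 without a mouse. The replicate block changed no other call of the 8 genes. In 10-month-old WT mice, leaving out the libraries high in Xist left 2 mice against 2 and called 7 of the 8 genes between chows (2 higher, 5 lower, beside 5550 of all genes), and with a Y-linked covariate 1 gene (Fibcd1, −0.56) passed between genotypes on anle138b. Of the 28 correlations, 16 passed over all mice pooled, 1 in 6-month mice, 15 in 10-month mice (10 positive, 5 negative) and 0, 0 and 0 in the clusters. The causes were not tested. Among all genes, 12 were called on placebo at 6 months, against 110 with no filter, 89 with DESeq2, 99 with the ventral covariate, 35 with all 4 groups, 4 with the Y-linked covariate and 7 without the libraries high in Xist. On anle138b at 6 months 8 became 42 with DESeq2 and 13 with the block. Between chows in 6-month-old APPPS1ΔE9 mice 9 became 120 with no filter, 205 with DESeq2, 94 with the Y-linked covariate, 5 with the choroid plexus covariate and 3 with all 4 groups. On placebo at 10 months 55 became 14 with the Y-linked covariate, 25 with the block, 113 with DESeq2, 8 without the libraries high in Xist, 118 with the ventral and 30 with the choroid plexus covariate. On anle138b at 10 months 124 became 272, 20, 188, 51 and 74 with the first 5 of these settings, in the same order, and 77 at an adjusted p of 0.05. For genotype over all mice 296 became 597 with no filter and 164 without the libraries high in Xist, and for chow 0 became 34 with no filter. DESeq2 called 2 genes between chows in 6-month-old WT mice and 28 and 2 for the interactions at 6 and 10 months, where edgeR called 0. The choroid and ventral covariates and the Xist alternative were chosen after seeing the data. Each gene had at least 374 reads in every mouse.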
